A study of Mus musculus with 47 samples.

Results

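Tuft cells are rare chemosensory cells of the intestinal epithelium, and the genes described here are 9 that mark them in the mouse: Avil, Trpm5, Dclk1, Pou2f3, Il25, Gfi1b, Alox5ap, Ptgs1 and Sh2d6. They were taken from a gene count table by symbol, across its 17 groups and 47 samples. Of the 9 symbols, 8 had a row among the 24062 genes of the table, and Sh2d6 had none. Enough reads for a test were present for 5 of the 8 in tissue (Avil, Trpm5, Dclk1, Alox5ap and Ptgs1) and for 5 in organoids (Avil, Trpm5, Dclk1, Pou2f3 and Alox5ap).

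The study sequenced RNA from the intestine of mice aged 15 to 19 weeks that differed in genetic background and in the state of Apc, the gene of a tumour suppressor that restrains Wnt signalling. Mice labelled APC min are heterozygous for the Min allele of Apc, which causes adenomas, and gave adenoma tissue as well as normal mucosa, called Min mucosa here. Wild-type mice gave normal mucosa only. The backgrounds were C57BL/6 (B6), a consomic strain with chromosome 5 of PWD/Ph mice on a C57BL/6 genome (C5), the F1 cross of both (C5F1), the C57BL/6xPWD F1 cross (B6xPWD) and PWD/Ph itself (PWD), which was present as wild type only. Each of the 13 tissue groups had 3 libraries, which made 12 of adenoma, 12 of Min mucosa and 15 of wild-type mucosa. Organoids labelled APC min from B6 and C5 mice were kept as controls or treated with 5-aza-cytidine (AZA), an inhibitor of DNA methylation, with 2 libraries in each of 4 groups. Adenoma, Min mucosa and organoids all carry the Min allele, so adenoma and Min mucosa of a background share one labelled genotype. Whether the libraries of a group stem from different mice or cultures is not stated, and the p-values then reflect only how far these libraries vary, which may be technical variation.

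Tuft cells read the gut lumen through a signalling chain shared with taste cells, in which G proteins and phospholipase C release calcium and the cation channel Trpm5 opens. Pou2f3 is the transcription factor without which tuft cells do not form, and Gfi1b is a transcription factor found in mature tuft cells. On activation by worms or protists the cells release the cytokine Il25, which makes innate lymphoid cells secrete type 2 cytokines, and they make prostaglandins and leukotrienes with Ptgs1 and Alox5ap. Several of the genes are not exclusive to tuft cells. Ptgs1 is also expressed by stromal cells and platelets, Alox5ap by myeloid and mast cells, Dclk1 by neurons and Avil by sensory neurons.

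Depth differed widely between libraries. Tissue libraries held 2726505 to 20070696 reads assigned to genes, and organoid libraries held 4389898 to 8373764. A single ribosomal RNA gene, Rn45s, took 16.4 to 72.7% of them in tissue and 0.760 to 1.61% in organoids, and replicate 1 of C5F1 Min mucosa was left with an effective size of 1315821 reads. Values below are counts per 1e6 reads (CPM) of a library's effective size, the scaled total used in the test, so 1 CPM is 1 or a few reads in the shallowest libraries. Replicate 1 of B6xPWD adenoma stood apart in composition: its 8 lymphocyte markers summed to 277 CPM, against at most 36.8 CPM in the other adenoma libraries, with Cd79a, a B cell receptor component, at 62.7 CPM and Spib, a factor of B cells and tuft cells, at 44.9 CPM. For Avil, Trpm5 and Dclk1, the main log2 changes and differences that include that library are given in the text with and without it.

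The stretches of 250 bases before the RefSeq transcription start (GRCm38.p6) of 3 genes are shown because these genes took different courses in adenoma: Avil was far higher, Trpm5 was lower and Dclk1 showed no called difference. They lie at chr10:127000459-127000708 on the plus strand for Avil, chr7:143094643-143094892 on the minus strand for Trpm5 and chr3:55242114-55242363 on the plus strand for 1 of 2 listed starts of Dclk1. The stretch of Avil lies inside the annotated gene, which begins at 127000065, and so precedes a later start within it. That of Dclk1 reaches into its gene, which begins at 55242303. Capitals mark a match to CTTTGAT or CTTTGAA, on either strand, the core bound by the TCF/LEF factors through which Wnt signalling acts.
Avil: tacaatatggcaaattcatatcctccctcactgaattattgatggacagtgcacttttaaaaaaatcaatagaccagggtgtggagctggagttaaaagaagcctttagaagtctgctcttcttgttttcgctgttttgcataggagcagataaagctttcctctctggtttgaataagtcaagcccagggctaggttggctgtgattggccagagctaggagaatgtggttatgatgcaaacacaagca
Trpm5: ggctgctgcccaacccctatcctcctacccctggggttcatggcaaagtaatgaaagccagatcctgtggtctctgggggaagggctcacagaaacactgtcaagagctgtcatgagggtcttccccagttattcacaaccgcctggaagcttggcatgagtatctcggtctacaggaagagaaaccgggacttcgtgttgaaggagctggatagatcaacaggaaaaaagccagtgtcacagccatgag
Dclk1: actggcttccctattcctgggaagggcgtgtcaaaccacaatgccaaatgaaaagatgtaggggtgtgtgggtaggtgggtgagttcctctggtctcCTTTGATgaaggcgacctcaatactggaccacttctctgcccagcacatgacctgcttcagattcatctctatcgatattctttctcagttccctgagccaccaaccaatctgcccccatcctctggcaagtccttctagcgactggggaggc
Of the 9 genes, 6 had a promoter in the table, and 1 of them, Dclk1, held the TCF/LEF core, 153 bases before its start. Among all 32851 promoters of this length in the same table, 7.48% held it. The octamer ATGCAAAT, the site of POU factors such as Pou2f3, was in 0 of the 6 and in 1.60% of all promoters, searched on both strands. Neither a match nor its absence says whether a factor binds there.

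Avil encodes advillin, an actin-bundling protein of the villin family, and lies on chromosome 10 (127000065 to 127020994 in GRCm38, the build of all gene positions here). It was the one tested tuft gene whose adenoma and Min mucosa values were apart in every background, as were 571 (4.18%) of all 13657 tested genes with the adenoma above and 398 (2.91%) with it below. In B6, the 3 adenomas had 17.7, 26.6 and 33.3 CPM, Min mucosa had 0.377, 0.822 and 2.45 CPM and wild-type mucosa had 0.453, 0.160 and 3.40 CPM. In C5F1, the adenomas had 26.8, 22.7 and 36.6 CPM, Min mucosa had 9.88, 2.08 and 4.44 CPM and wild-type mucosa had 1.27, 1.04 and 2.22 CPM. Adenomas were above both kinds of mucosa in these backgrounds with no overlap. In C5, the adenomas had 14.3, 14.2 and 8.22 CPM, Min mucosa had 1.60, 1.59 and 2.15 CPM and wild-type mucosa had 5.19, 2.58 and 2.64 CPM. In B6xPWD, the adenomas had 8.23, 13.7 and 20.8 CPM, Min mucosa had 1.72, 1.07 and 1.64 CPM and wild-type mucosa had 0.330, 0.964 and 1.10 CPM. The wild-type mucosa of PWD had 2.79, 2.74 and 1.22 CPM, within the range of the other mucosae. In C5 and B6xPWD, too, no adenoma overlapped with the mucosa of its background. Of the 12 adenoma libraries, 10 were above all 27 mucosa libraries, the highest of which, replicate 1 of C5F1 Min mucosa at 9.88 CPM, rests on 13 reads.

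**Figure D1:**
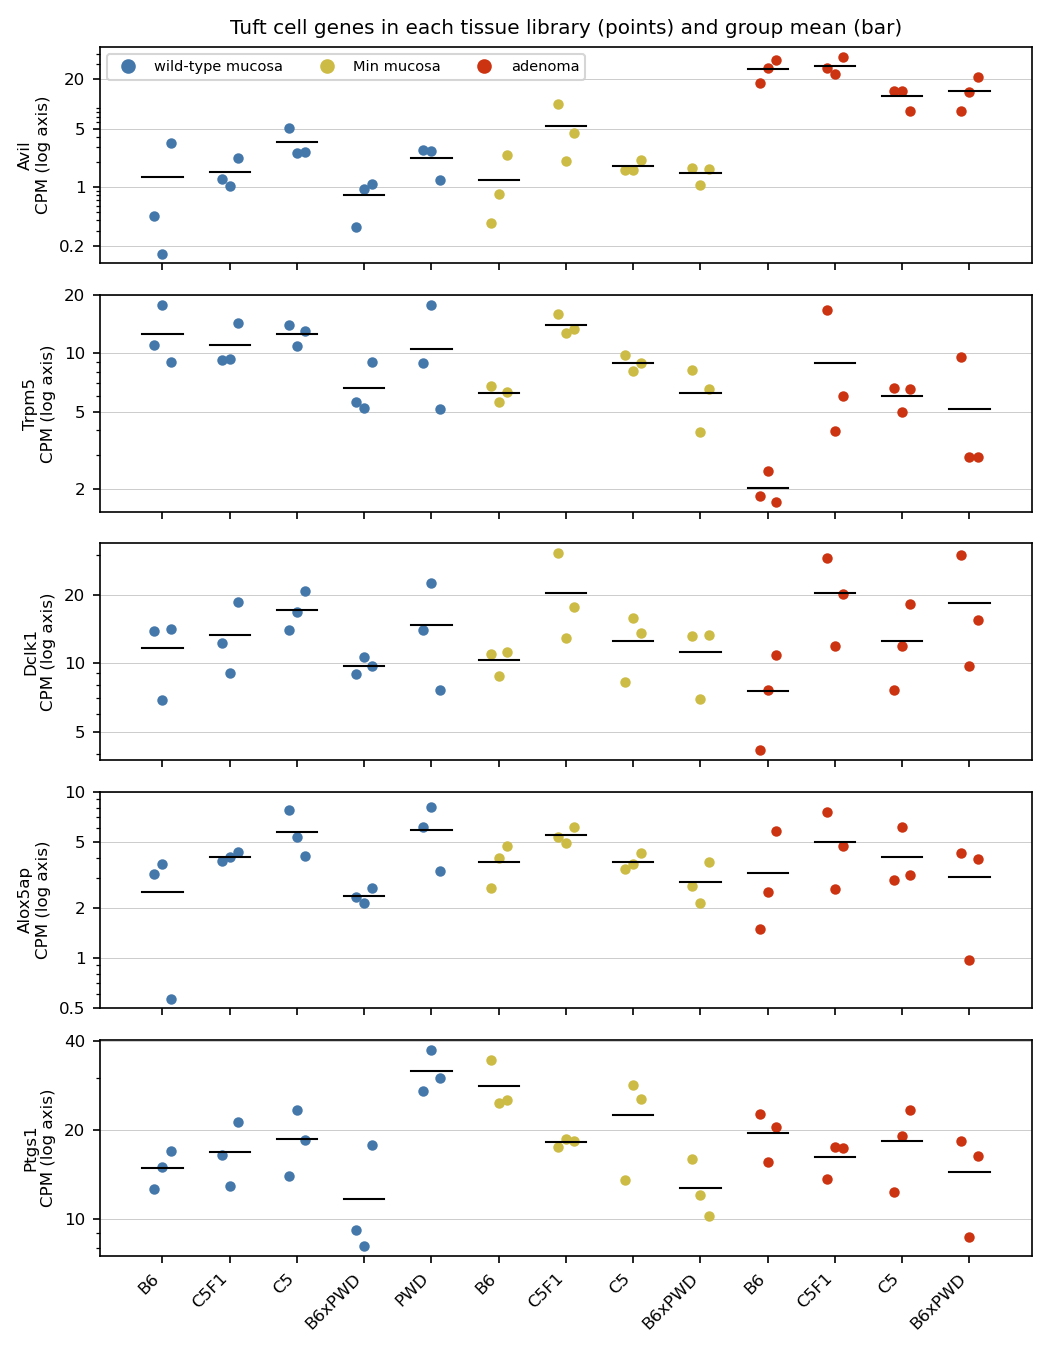
Level of the 5 tested tuft cell genes in every tissue library, in CPM on log axes, with 1 point per library and a bar at the mean of each group of 3, by background and coloured by tissue. Avil was higher in each adenoma group than in the Min mucosa of the same background, from 8.22 to 36.6 CPM in adenomas, whereas the ranges of Dclk1 and Alox5ap overlapped between adenoma and Min mucosa in every background.

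In a fit of 13657 genes over the 39 tissue libraries, Avil was 8.57-fold higher in adenoma than in Min mucosa on average over the 4 backgrounds (log2 3.10 ± 0.24 SE, adjusted p = 4.09e-12, edgeR quasi-likelihood F-test with Benjamini-Hochberg adjustment, 12 libraries against 12). A gene is called different here where that adjusted p is below 0.05. Of the 5 tested tuft genes 2 were called, Avil higher and Trpm5 lower, in a comparison that called 45.2% of all genes, 23.7% as higher and 21.5% as lower. These are bulk tissue libraries, in which a change in the number of cells of a type cannot be told apart from a change in RNA per cell. The mean adenoma level was 20.3 ± 9.23 CPM (SD, n = 12), against 2.48 ± 2.54 CPM in Min mucosa (n = 12) and 1.87 ± 1.37 CPM in wild-type mucosa (n = 15). By background, the fold was 17.9 in B6 (log2 4.16 ± 0.50), 8.02 in B6xPWD (3.0 ± 0.49), 6.27 in C5F1 (2.65 ± 0.47) and 6.03 in C5 (2.59 ± 0.47), and Avil was called in each. The share of all genes called in these comparisons was 26.7%, 16.4%, 20.5% and 2.77%. Across all 12 pairs of adenoma and Min mucosa libraries with the same background and replicate number, Avil was higher in the adenoma. Without replicate 1 of B6xPWD adenoma the log2 change was 3.16 on average and 3.28 in B6xPWD.

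The background-specific folds of Avil were not shown to differ from that in B6. The difference in log2 change was -1.51 ± 0.63 for C5F1 (adjusted p = 1.0), -1.57 ± 0.69 for C5 (adjusted p = 0.441) and -1.16 ± 0.72 for B6xPWD (adjusted p = 0.592). Over all genes, 0%, 0.11% and 0.63% were called in these 3 tests. Without replicate 1 of B6xPWD adenoma, the difference for B6xPWD was -0.87 (adjusted p = 0.803). The direct neighbours of Avil on the chromosome did not share the size of its change: Ctdsp2 fell by 0.54 on the log2 scale in adenoma, Mettl1 rose by 0.34 (adjusted p = 0.0491) and Tsfm had a log2 change of 0.24 (adjusted p = 0.244).

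**Figure D2:**
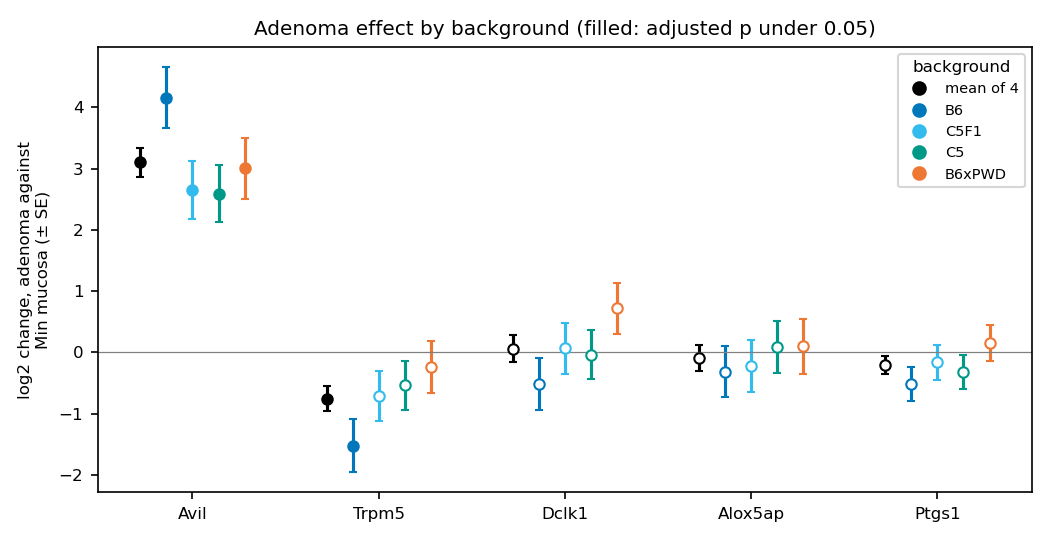
Log2 change of the tested tuft cell genes between adenoma and Min mucosa, on average and in each of 4 backgrounds, with bars of 1 standard error; filled points passed the test at an adjusted p below 0.05. Avil sits between 2.59 and 4.16 in all backgrounds, and Trpm5 lies below 0 in all of them, passing the test in B6 and on average.

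Trpm5, the channel at the end of the taste-type signalling chain, is on chromosome 7 (143071529 to 143094642) and moved the other way. In B6, the adenomas had 1.83, 2.47 and 1.71 CPM, Min mucosa had 6.79, 5.61 and 6.30 CPM and wild-type mucosa had 11.0, 17.8 and 9.07 CPM. The 3 B6 groups did not overlap. In C5, the adenomas had 6.65, 4.96 and 6.54 CPM, Min mucosa had 9.82, 8.07 and 8.96 CPM and wild-type mucosa had 14, 10.9 and 13.1 CPM, again without overlap. The share of all tested genes apart within a single background is not given here, so these separations are a description only. In C5F1, the adenomas had 16.9, 3.95 and 6.06 CPM, Min mucosa had 16.0, 12.7 and 13.4 CPM and wild-type mucosa had 9.30, 9.35 and 14.4 CPM. In B6xPWD, the adenomas had 9.60, 2.90 and 2.90 CPM, Min mucosa had 8.23, 3.92 and 6.55 CPM and wild-type mucosa had 5.61, 5.21 and 9.01 CPM. In these latter backgrounds replicate 1 of adenoma was the highest adenoma library and lay above the Min mucosa. Wild-type mucosa of PWD had 8.89, 17.7 and 5.17 CPM. Over all backgrounds, 5 of 12 adenoma libraries were below the lowest of the 27 mucosa libraries, at 3.92 CPM.

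On average over backgrounds Trpm5 fell by 0.75 ± 0.21 on the log2 scale in adenoma, a 1.68-fold lower level (adjusted p = 0.00336), and was lower in 10 of 12 pairs. Adenomas averaged 5.54 ± 4.28 CPM, Min mucosae 8.86 ± 3.56 CPM and wild-type mucosae 10.7 ± 4.04 CPM. Without replicate 1 of B6xPWD adenoma the average log2 change was -0.98 (adjusted p = 0.000151). In B6 the change was -1.52 ± 0.43 (adjusted p = 0.00848), a 2.87-fold lower level, which did not pass the test without replicate 1 of B6 adenoma, the deepest of the 3 (log2 change -1.42, adjusted p = 0.0583). In C5F1 it was -0.71 ± 0.41 (adjusted p = 0.237), but -1.47 (adjusted p = 0.0102) without replicate 1 of C5F1 adenoma and -1.03 (adjusted p = 0.00445) with the replicate number as a block. The values of -0.54 ± 0.40 in C5 (adjusted p = 0.666) and -0.24 ± 0.43 in B6xPWD (adjusted p = 0.758) did not pass the test, and that in B6xPWD was -1.05 (adjusted p = 0.126) without its replicate 1. The differences from the B6 value, 0.81 for C5F1 (adjusted p = 1.0), 0.99 for C5 (adjusted p = 0.626) and 1.28 ± 0.59 for B6xPWD (adjusted p = 0.379), did not pass the test either. That for B6xPWD was 0.48 (adjusted p = 0.898) without replicate 1 of its adenoma.

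The reads of Avil per read of Trpm5 in a library restate the opposite courses of both genes on a scale without library size, and are given as a description. There were 0.00901 to 0.375 reads of Avil per read of Trpm5 in wild-type mucosa (median 0.154) and 0.0556 to 0.619 in Min mucosa (median 0.224). In adenoma the ratio ran from 0.857 to 19.5 (median 5.23), so that no adenoma library overlapped with any mucosa library. Set against Dclk1 instead, the reads of Avil ran from 0.274 to 4.26 in adenoma (median 1.62), 0.0345 to 0.325 in Min mucosa and 0.0233 to 0.370 in wild-type mucosa, and these ranges did overlap. The overlap rests on replicate 1 of B6xPWD adenoma, the library with the high lymphocyte markers. The next lowest adenoma ratio, 0.453 in replicate 3 of C5, was above every mucosa library.

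**Figure D3:**
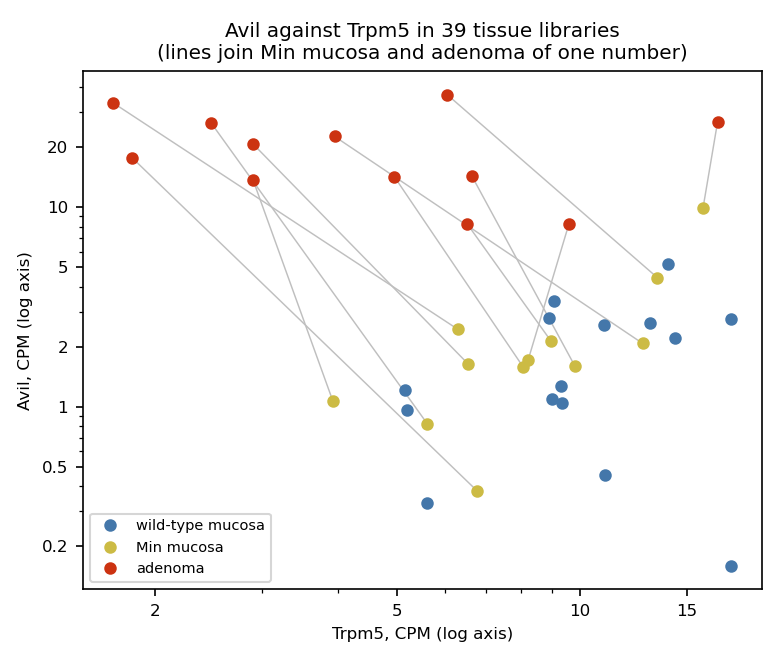
Avil against Trpm5 level in each tissue library, both in CPM on log axes, with 1 point per library, coloured by tissue, and a line from the Min mucosa to the adenoma of the same background and replicate number. The adenoma libraries form a band at high Avil, from 8.22 to 36.6 CPM, over a wide range of Trpm5, from 1.71 to 16.9 CPM.

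Dclk1, a microtubule-associated kinase much used to label tuft cells, spans 55242303 to 55539068 on chromosome 3 and overlaps 3 other genes annotated in RefSeq. Reads there may not have been assigned to Dclk1 alone. Whether this was so is not known, since the annotation and use of strand in counting are not given. Levels of Dclk1 overlapped between the tissues. In B6, the adenomas had 4.15, 7.60 and 10.9 CPM, Min mucosa had 10.9, 8.76 and 11.2 CPM and wild-type mucosa had 13.9, 6.88 and 14.2 CPM. In B6xPWD, the adenomas had 30.0, 9.66 and 15.5 CPM, Min mucosa had 13.1, 6.95 and 13.3 CPM and wild-type mucosa had 8.91, 10.6 and 9.67 CPM. The 30.0 CPM belongs to the library with the high lymphocyte markers. In C5F1, the adenomas had 29.1, 11.8 and 20.1 CPM, Min mucosa had 30.4, 12.9 and 17.6 CPM and wild-type mucosa had 12.3, 9.09 and 18.6 CPM. In C5, the adenomas had 7.58, 11.9 and 18.1 CPM, Min mucosa had 8.21, 15.8 and 13.5 CPM and wild-type mucosa had 14, 16.7 and 20.7 CPM. The wild-type mucosa of PWD had 14, 22.5 and 7.60 CPM. Adenoma and Min mucosa overlapped in every background. The average log2 change in adenoma was 0.06 ± 0.22 (adjusted p = 0.854), or -0.10 without that library, and the adenoma was higher in 5 of 12 pairs and lower in 7. Within backgrounds the values of -0.51 ± 0.42 in B6 and 0.72 ± 0.42 in B6xPWD (0.15 without replicate 1 of adenoma) did not pass the test, and the difference between them, 1.23 ± 0.60, did not either (adjusted p = 0.414). That difference was 0.68 (adjusted p = 0.828) without replicate 1 of B6xPWD adenoma.

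The transcription factors and the cytokine were too sparse for a test in tissue. Pou2f3 (chromosome 9, 43123927 to 43205755) had 35 reads in all adenoma libraries, 30 in Min mucosa and 41 in wild-type mucosa, at most 9 in one library. The ratio of its rates in adenoma and Min mucosa was 0.940 with an interval of 0.560 to 1.58 (95%, counting error only). Gfi1b (chromosome 2, 28609450 to 28621982), which overlaps 1 other annotated gene, had 16, 22 and 21 reads, and its adenoma to Min mucosa ratio was 0.586 (0.288 to 1.17). Il25 (chromosome 14, 54932695 to 54935837), the cytokine by which tuft cells signal, had 7 reads in 7 of the 39 tissue libraries, 2 in adenoma, 3 in Min mucosa and 2 in wild-type mucosa. In the 9 B6 tissue libraries it had 0 reads, which allows a level of up to 0.0400 CPM. The Il25 ratio of adenoma to Min mucosa was 0.537 (0.0448 to 4.69). The intervals of all 3 genes included equal rates, and those of Gfi1b and Il25 also included a 2-fold lower rate in adenoma. In C5F1 alone, the 3 adenomas had 0.0745 to 0.291 CPM of Gfi1b, from 4 reads, and Min mucosa had 0.328 to 1.52 CPM, from 11 reads. Il25 had 0 reads in these adenomas and 1 in each of the 3 Min mucosae, so that both genes were without overlap there, on very few reads. In B6, C5 and B6xPWD the ranges of both genes overlapped. The share of all genes apart in C5F1 is not given here, so nothing is read from this separation. The highest Pou2f3 values, 2.62 CPM for an adenoma and 3.04 CPM for a Min mucosa, were both in C5F1 replicate 1, libraries with effective sizes of 3438419 and 1315821 reads.

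Of the genes of lipid mediator synthesis, Ptgs1 and Alox5ap did not pass the test between adenoma and Min mucosa in any background. Ptgs1, cyclooxygenase 1 (chromosome 2, 36216742 to 36258593), had means of 17.1 ± 4.22 CPM over the adenomas, 20.4 ± 7.26 CPM over Min and 18.7 ± 7.99 CPM over wild-type mucosae, and its average log2 change in adenoma was -0.21 ± 0.14 (adjusted p = 0.244). In B6 its adenoma values of 22.6, 15.6 and 20.5 CPM lay below the Min mucosa values of 34.4, 24.8 and 25.2 CPM. That change of -0.51 ± 0.28 had an adjusted p of 0.178, and of 0.0329 with the replicate number as a block (log2 change -0.54). Ptgs1 was lower in adenoma in 10 of 12 pairs, the exceptions being in B6xPWD. Alox5ap, the protein that presents arachidonic acid to 5-lipoxygenase, lies on chromosome 5 (149265004 to 149288153), the chromosome that C5 mice have from PWD. It ranged from 0.567 to 8.08 CPM in mucosa, averaged 3.83 ± 1.96 CPM over adenomas and 3.97 ± 1.18 CPM over Min mucosae, and had an average log2 change of -0.09 ± 0.21 (adjusted p = 0.766). Of 4 further eicosanoid genes on the tuft list, 1 was called in a background: Ltc4s, the synthase of leukotriene C4, fell by 1.11 ± 0.39 in B6xPWD adenoma (adjusted p = 0.04999). Of all tested genes, 16.4% were called in that comparison. The Ltc4s value includes the library with the high lymphocyte markers and is not given without it.

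Levels of different genes were compared per length of exon, within each tissue, because the order of the genes was not the same in all. In adenoma the mean was 5.96 CPM per kb for Avil, 4.41 for Ptgs1, 2.70 for Alox5ap, 0.961 for Dclk1, 0.865 for Trpm5, 0.164 for Pou2f3, 0.110 for Gfi1b and 0.0299 for Il25. In Min mucosa it was 5.25 CPM per kb for Ptgs1, 2.8 for Alox5ap, 1.38 for Trpm5, 0.887 for Dclk1 and 0.731 for Avil, and in wild-type mucosa 4.82, 2.88, 1.67, 0.870 and 0.551 for the same genes. Avil thus had the highest of these means in adenoma and the lowest of the 5 in both mucosae. Ordered by group mean, the Avil level ran from B6xPWD wild-type mucosa (0.798 ± 0.411 CPM) to C5F1 Min mucosa (5.46 ± 4.00 CPM), then C5 (12.3 ± 3.49 CPM), B6xPWD (14.3 ± 6.31 CPM), B6 (25.9 ± 7.84 CPM) and C5F1 adenoma (28.7 ± 7.18 CPM). The ranges of all 12 pairs of groups next to each other in this order overlapped, including C5F1 Min mucosa and C5 adenoma, so single steps of it did not exceed the spread. For Trpm5, B6 adenoma was the lowest group (2.00 ± 0.409 CPM) and C5F1 Min mucosa the highest (14 ± 1.71 CPM), and B6 and B6xPWD adenoma, next to each other at the low end, were the only neighbours whose ranges were apart. Dclk1 ran from 7.54 ± 3.37 CPM in B6 adenoma to 20.3 ± 8.62 CPM in C5F1 adenoma, Alox5ap from 2.36 CPM in B6xPWD wild-type mucosa to 5.84 ± 2.38 CPM in PWD, with every pair of neighbours overlapping, and the same held for Ptgs1, from 11.7 ± 5.30 CPM in B6xPWD wild-type mucosa to 31.5 ± 5.25 CPM in PWD.

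A list of 43 further genes reported in tuft cells, chosen with earlier results of these data known, served to set the 9 genes in context. Of the 32 that could be tested, 7 were higher and 6 lower in adenoma on average, with a median log2 change of -0.23, against 0.01 over all tested genes, of which 23.7% were higher and 21.5% lower. The counts and the sign of the median were not the same in all backgrounds: in B6 5 were higher and 3 lower (median -0.47), in B6xPWD 10 and 1 (0.32), in C5F1 4 and 0 (-0.081) and in C5 3 and 0 (-0.30). Of all tested genes, 26.7%, 16.4%, 20.5% and 2.77% were called in these comparisons, in the same order. The B6xPWD values include the library with the high lymphocyte markers and are not given without it. Higher were the keratins Krt23, 10.1-fold (log2 3.34 ± 0.20, from 6.75 ± 1.82 to 73.3 ± 31.9 CPM), and Krt18 (1.51 ± 0.14, from 157 ± 28.3 to 447 ± 143 CPM). The transcription factor Sox4 was higher by 1.93 ± 0.18, from 26.2 ± 7.79 to 108 ± 46.0 CPM. Krt18 and Sox4 are also expressed by other epithelial cells. Lower were the adaptor Sh2d7 (-0.97 ± 0.25, 6.86 ± 5.36 CPM in Min mucosa and 3.25 ± 2.36 CPM in adenoma) and the regulator of G protein signalling Rgs13 (-0.62, adjusted p = 0.0483, between 0.000818 and 0.108 under 30 alternatives). Also called, and named after their values were seen, were Itpr3 (0.46), the calcium release channel of the taste-type chain, with Tuba1a, Skap2 and Ptpn18 as higher, and Kctd12, Siglec5 and Bmx as lower. By group, 1 of 7 taste signalling genes was higher and 1 lower, 0 of 4 eicosanoid genes were called, 1 of 2 transcription factors was higher, and 5 of 19 surface, kinase and other genes were higher and 5 lower. Without replicate 1 of B6xPWD adenoma 13 genes of the list were lower in place of 6.

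**Figure D4:**
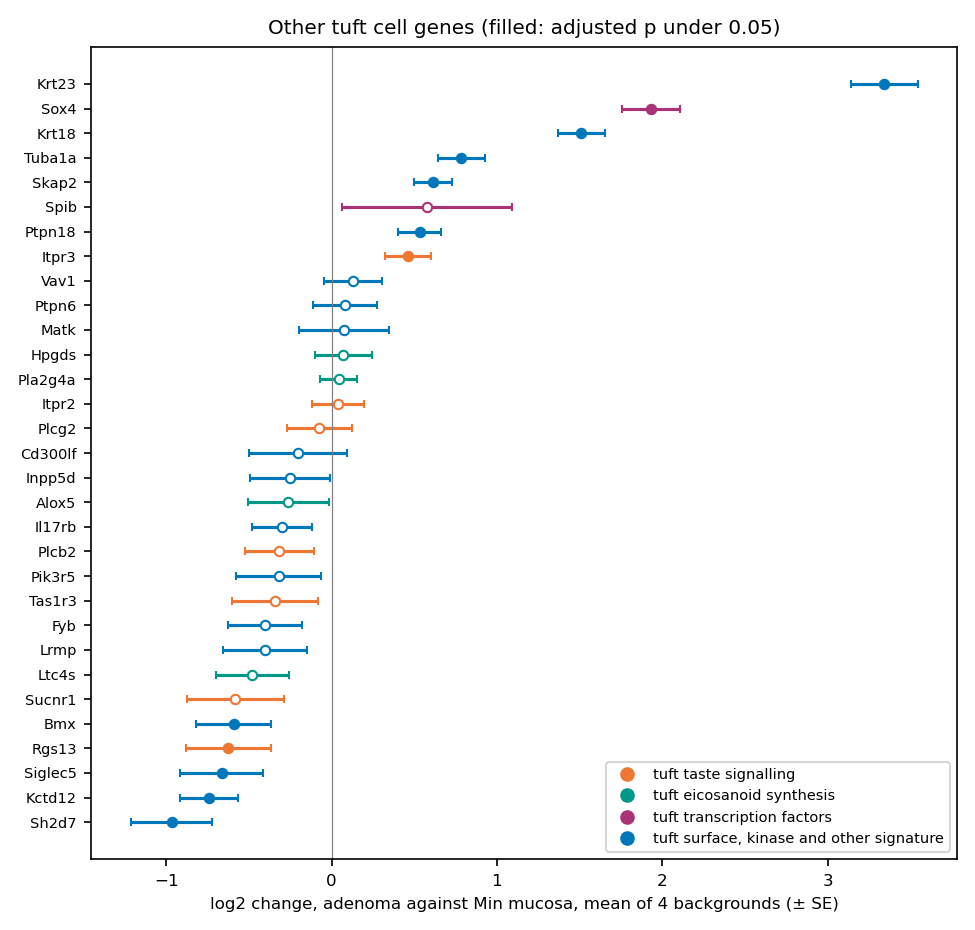
Log2 change of 31 of the tested further tuft cell genes between adenoma and Min mucosa on average over 4 backgrounds, with bars of 1 standard error, and filled points for an adjusted p below 0.05. Krt23, Sox4 and Krt18 stand above 1.5, and most of the signalling genes lie between -1 and 0.5.

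In the circuit that tuft cells act on, 7 of 12 listed genes were tested and 4 were higher in adenoma. The same comparison called 23.7% of all tested genes as higher and 21.5% as lower. Il1rl1, the receptor of the alarmin Il33, rose from 6.31 ± 3.19 to 82.9 ± 32.6 CPM (log2 3.65 ± 0.24), and Il33 rose from 6.65 ± 3.52 to 44.8 ± 19.0 CPM (2.78 ± 0.22). The growth factor Areg rose by 1.61 ± 0.27 (4.17 to 12.6 CPM) and Il4ra, a receptor subunit for the type 2 cytokines, by 0.45. Il13ra1 fell by 0.33, and the receptor chains for Il25, Il17ra and Il17rb, were not called. The cytokines Il4, Il5, Il13 and Tslp and the factor Gata3 had too few reads for the test.

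Markers of other cell types moved in the same comparison, and their part in the values above was not tested. The counts below stand beside 23.7% of all tested genes called higher and 21.5% called lower, and several of them are near these shares. Mast cell markers, which summed to 43.6 to 356 CPM over adenomas and 34.8 to 109 CPM over Min mucosae, had 3 of 6 higher and 1 lower. Fibroblast markers (179 to 787 CPM against 196 to 554 CPM) had 4 of 8 higher, and myeloid markers (74.3 to 352 CPM against 106 to 354 CPM) had 3 of 9 higher and 5 lower. Smooth muscle markers (39.6 to 946 CPM against 113 to 2258 CPM) had 6 of 6 lower, enteric neuron and glia markers (16.3 to 55.1 CPM against 15.2 to 42.2 CPM) had 1 of 9 higher and 5 lower, and lymphocyte markers (6.57 to 277 CPM against 11.5 to 54.9 CPM) had 2 of 8 lower. Of the mature epithelial classes, enterocyte markers (2118 to 10635 CPM against 7802 to 23287 CPM) had 7 of 9 lower, enteroendocrine markers (32.2 to 105 CPM against 113 to 192 CPM) 8 of 9 lower, goblet markers (3599 to 10658 CPM against 8349 to 12759 CPM) 5 of 8 lower and 1 higher, and Paneth markers (926 to 5277 CPM against 3333 to 10601 CPM) 5 of 6 lower and 1 higher. Platelet and erythroid markers had 1 of 5 higher, with Hbb-b1 and Hba-a1 at 0. Markers of proximal intestine had 2 of 6 lower and those of distal ileum 2 of 4 lower. The enteroendocrine markers did not overlap between adenoma and Min mucosa.

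Between Min and wild-type mucosa none of the 5 tested tuft genes was called on average or in any background, by edgeR or DESeq2. Without adjustment, edgeR gave a p below 0.05 for 1 of the 5 on average, 2 in B6, 1 in C5F1 and 0 in C5 and B6xPWD. Of all genes, 0.00732% were called on average, 0.52% in B6 and 0% in the other backgrounds, where 488 to 993 genes had an unadjusted p below 0.05. The average log2 changes were 0.41 ± 0.28 for Avil, -0.32 ± 0.20 for Trpm5 and 0.35 ± 0.15 for Ptgs1 (adjusted p = 0.573). In B6, Trpm5 had a log2 change of -1.02 ± 0.41 (adjusted p = 0.245) and Ptgs1 one of 0.93 ± 0.29 (adjusted p = 0.134). In the list of further tuft cell genes described above, 0 of 32 were called by edgeR in any of these comparisons, and 2 in B6, 1 in C5 and 0 in the rest had an unadjusted p below 0.05.

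The backgrounds were compared with B6 in each tissue to ask whether alleles from PWD go with other levels. Reads of all backgrounds were aligned to mm10, and whether reads from PWD alleles map to it as well was not tested. In adenoma, Trpm5 was higher than in B6 in all 3 other backgrounds: by 1.91 ± 0.44 in C5F1 (adjusted p = 0.0401), 1.48 ± 0.43 in C5 (adjusted p = 0.0170) and 1.30 ± 0.44 in B6xPWD (adjusted p = 0.0403). The share of all genes called was 0.483%, 17.8% and 16.9%. These 3 comparisons share the 3 B6 adenomas, which held the lowest Trpm5 level of all groups. The call in C5F1 was lost without any single B6 adenoma (adjusted p of 0.0892 to 0.153) and without replicate 1 of C5F1 (log2 1.19, adjusted p = 0.295). That in C5 was lost without replicate 1 of B6 (adjusted p = 0.0914), replicate 1 of C5 (0.0513) or replicate 3 of C5 (0.0517). That in B6xPWD was lost without any single B6 adenoma and, at a log2 change of 0.51 (adjusted p = 0.538), without its own replicate 1. It also did not pass the test when only the compared groups were fitted (log2 1.33, adjusted p = 0.152). Dclk1 was higher in B6xPWD adenoma by 1.34 ± 0.43 (adjusted p = 0.0272). That call was lost without its replicate 1 (log2 0.81, adjusted p = 0.243), without replicate 1 of B6 (0.93, adjusted p = 0.199) or replicate 2 of B6 (1.39, adjusted p = 0.0678), and when only the compared groups were fitted (adjusted p = 0.139). In C5F1 adenoma Dclk1 was at 1.44 ± 0.42 above B6, a larger value that did not pass the test (adjusted p = 0.101), but did in DESeq2 (adjusted p = 0.0494) and with only the compared groups (adjusted p = 0.0383). In edgeR without replicate 1 of C5F1 adenoma this difference was 1.12 (adjusted p = 0.373). In the further tuft list, 8 of 32 genes were higher and 1 lower in B6xPWD than B6 adenoma, and without that library these counts were 0 and 0. Lymphocyte markers had 6 of 8 higher in the same comparison. Avil did not pass the test in any of the 3: its differences from B6 were 0.16 in C5F1, -0.85 in B6xPWD (adjusted p = 0.163) and -1.03 ± 0.41 in C5 (adjusted p = 0.0777), the last of which had an adjusted p of 0.0234 when only the compared groups were fitted. The Avil difference in B6xPWD was -0.54 (adjusted p = 0.450) without replicate 1 of B6xPWD adenoma.

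In the mucosa, Ptgs1 was the tuft gene that differed between backgrounds. It was 2.15-fold lower in Min mucosa of B6xPWD (16.0, 12.1 and 10.3 CPM) than of B6 (34.4, 24.8 and 25.2 CPM), with 15.9% of all genes called (log2 -1.11 ± 0.28, adjusted p = 0.0079). It was 2.14-fold higher in wild-type mucosa of PWD (27.2, 37.4 and 30.1 CPM) than of B6 (12.7, 15.0 and 17.0 CPM), by log2 1.10 ± 0.29 (adjusted p = 0.0079), with 18.7% of all genes called. PWD values were above every other wild-type library. Between B6xPWD and B6 the Ptgs1 difference in wild-type mucosa was -0.31 ± 0.31 (adjusted p = 0.577) and was not called. The lower level in B6xPWD was thus called in Min mucosa only. Markers of other cell types moved with both called differences. In Min mucosa of B6xPWD against B6, smooth muscle markers summed to 113 to 1047 CPM against 1065 to 2258 CPM (0 of 6 called), platelet and erythroid markers to 11.4 to 20.3 CPM against 44.1 to 95.3 CPM (3 of 5 lower, with Hbb-b1 and Hba-a1 at 0 in both groups) and lymphocyte markers to 11.5 to 16.3 CPM against 26.0 to 54.8 CPM (0 of 8 called), all without overlap. Fibroblast markers overlapped (196 to 347 CPM against 282 to 433 CPM, 0 of 8 called), and myeloid markers had a higher sum (235 to 354 CPM against 119 to 163 CPM) with 1 of 9 higher and 4 lower. In wild-type mucosa of PWD against B6, fibroblast markers summed to 382 to 605 CPM against 249 to 306 CPM (2 of 8 higher), myeloid markers to 298 to 566 CPM against 108 to 173 CPM (2 of 9 higher) and enterocyte markers to 25761 to 42128 CPM against 7618 to 20863 CPM (2 of 9 higher), again without overlap. Smooth muscle markers (863 to 1238 CPM against 718 to 1050 CPM) and platelet and erythroid markers (9.95 to 21.0 CPM against 15.3 to 41.8 CPM) overlapped there. The part of these cells in the Ptgs1 values was not tested. The first call was lost without replicate 3 of B6xPWD Min mucosa (adjusted p = 0.0521) and the second without replicate 1 of B6 (0.0608) or without replicate 2 of PWD (0.0544). Alox5ap, the member on chromosome 5, had 7.78, 5.31 and 4.11 CPM in wild-type mucosa of C5, 6.09, 8.08 and 3.34 CPM in PWD and 3.17, 3.68 and 0.567 CPM in B6. The C5 to B6 difference of 0.87 ± 0.46 (adjusted p = 0.355) and that of 1.0 ± 0.45 in PWD (adjusted p = 0.122) did not pass the test. No tuft gene was called by edgeR in the other comparisons with B6, which were those of C5F1, C5 and B6xPWD in wild-type mucosa and of C5F1 and C5 in Min mucosa. An unadjusted p below 0.05 was given to 0, 1, 1, 3 and 0 of the 5 genes in these comparisons, in the same order, and 0.022%, 1.47%, 9.6%, 1.87% and 1.1% of all genes were called. In Min mucosa of C5F1, Avil was at log2 1.67 ± 0.52 above B6 (adjusted p = 0.0842), and DESeq2, which called none in the other 4, called this difference (log2 2.02, adjusted p = 0.0248). Without replicate 3 of B6, the mucosa library with the highest Avil value in B6 in each tissue, edgeR called Avil as higher in C5F1 Min mucosa (log2 2.36, adjusted p = 0.0228) and in wild-type mucosa of C5 (2.48, adjusted p = 0.0168) and PWD (2.09, adjusted p = 0.0148). Trpm5 was called as higher in C5F1 than B6 Min mucosa when only these groups were fitted (log2 1.10, adjusted p = 0.0290).

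In organoids, none of the 5 tested tuft genes was called by edgeR or DESeq2 in any of 5 comparisons, and 1 of them, Trpm5 between C5 and B6 controls, had an unadjusted p below 0.05 in edgeR. AZA called 28.5% of all genes on average, 16.1% in B6 and 14.6% in C5. Avil was at 1.15 and 1.89 CPM in B6 controls and 5.65 and 1.90 CPM after AZA, and at 3.20 and 1.69 CPM in C5 controls and 4.20 and 6.16 CPM after AZA. Treated libraries were above the control with the same number, except that replicate 2 of B6 was level with it, from 11 treated and 13 control reads. Organoid libraries of the same number did not deviate together (correlations of -0.012 to -0.00029). The average log2 change of Avil was 1.08 ± 0.69 (adjusted p = 0.266). Trpm5 was at 1.01 and 0.291 CPM in B6 controls, from 7 and 2 reads, and 4.11 and 2.25 CPM after AZA. In C5 it was at 5.39 and 3.84 CPM in controls and 3.19 and 2.28 CPM after AZA, so that treated libraries lay above controls in B6 and below them in C5. The log2 change was 1.86 ± 1.01 in B6 (adjusted p = 0.246) and -0.69 in C5, and the difference of the effects called 0% of all genes. Between control organoids of C5 and B6, in which 0.209% of genes were called, Trpm5 differed by 2.35 ± 1.05 (adjusted p = 0.843). Dclk1 had an average log2 change of 0.54 ± 0.72, with 7.02 and 0.345 CPM in the treated B6 libraries. Pou2f3 had changes of opposite sign, -1.19 ± 1.56 in B6 (adjusted p = 0.668) and 1.23 ± 1.43 in C5 (adjusted p = 0.639), from 57 reads in all 8 libraries. Gfi1b had 0 reads in 4 control organoid libraries, which allows up to 0.105 CPM, and 5 reads in the treated ones, and Il25 had 1 and 2 reads. Ptgs1 averaged 0.506 ± 0.417 CPM in control organoids (n = 4), far under its level in tissue.

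**Figure D5:**
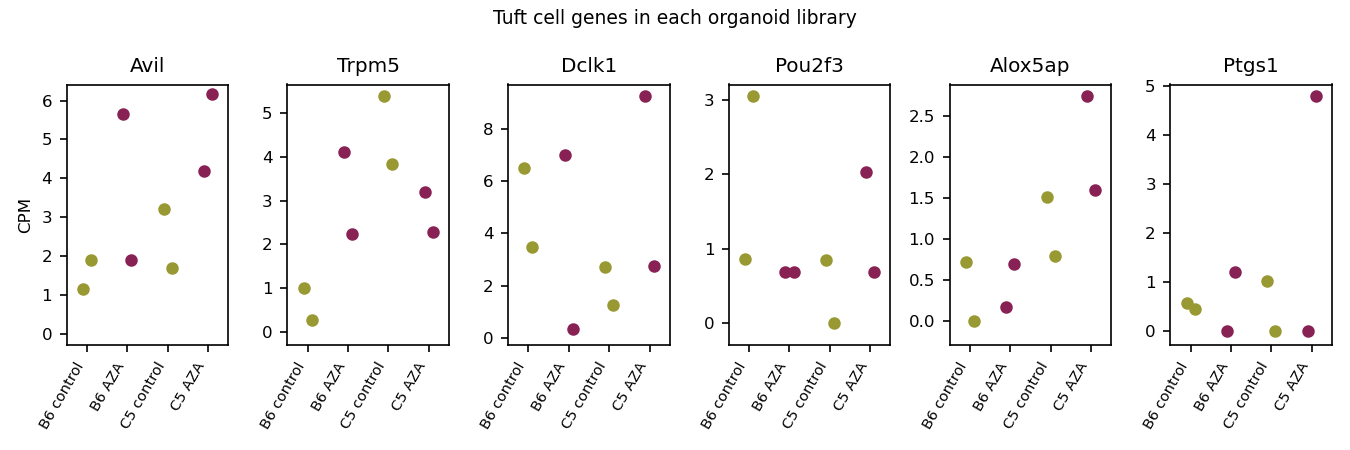
Level of the tuft cell genes (the 5 tested in organoids and Ptgs1) in each of the 8 organoid libraries, in CPM on a linear axis, with light points for control and dark points for AZA-treated organoids of B6 and C5. Avil lies between 1.15 and 3.20 CPM in controls and between 1.90 and 6.16 CPM after AZA, and the 2 libraries of a group often lie far apart.

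Of the 28 further tuft genes tested in organoids, 6 were higher and 2 lower after AZA, with a median log2 change of 0.31, against 0.04 over all genes. The 8 called genes are a share near the 28.5% of all genes called, so nothing about the list is read from that count. Krt18 rose from 517 ± 45.2 to 966 ± 162 CPM (log2 0.90) and Krt23 from 20.1 ± 5.58 to 51.4 ± 16.0 CPM (1.35 ± 0.25). Kctd12 rose by 0.95 and the phosphatase Ptpn6 by 0.83. Plcb2, the phospholipase of the taste-type chain, and Sucnr1, the succinate receptor of tuft cells, were also called higher, from levels near that of a single read in controls. Sox4 fell by 1.25 ± 0.21, from 63.0 ± 11.9 to 26.5 ± 5.49 CPM, and Tas1r3, a sweet and umami receptor gene, fell by 2.10. Markers of mature cells of the epithelium moved in the same comparison, with 9 of 9 enterocyte, 6 of 6 Paneth, 6 of 8 goblet and 6 of 9 enteroendocrine markers higher, and their part in these values was not tested. Of the type 2 circuit, Il33 (2.07), Il4ra (1.35) and Il13ra1 (0.53) were higher.

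The genes whose tissue pattern was most like that of each tuft gene, by Pearson correlation of log2 CPM over the 39 libraries, which share groups and depth, were described without a test. For Avil they were Fam129b (0.92), Sh3pxd2b (0.91) and Etv6 (0.90). For Trpm5 they included Slco2b1 (0.79) and Sh2d7 (0.78), of which Sh2d7 is on the further tuft list. For Dclk1 they were Pik3r5 (0.71), Alox5 (0.66) and Zhx2 (0.66), of which Pik3r5 and Alox5 are on it too. Alox5ap was closest to Pygl (0.75), Pglyrp2 (0.68) and Mmp17 (0.67), and Ptgs1 to Col6a1 (0.84), Dennd5a (0.82) and Tgfbr3 (0.81). Among the tuft genes themselves the correlation was 0.56 for Dclk1 and Trpm5, 0.50 for Alox5ap and Dclk1, 0.45 for Alox5ap and Trpm5 and -0.41 for Avil and Trpm5. Taken within groups, as deviations from each group's mean, these were 0.55, 0.43, 0.51 and -0.029, so that the negative value for Avil and Trpm5 came from differences between groups.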

How the data were processed

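RNA from 39 intestinal tissue and 8 organoid samples of mice was sequenced after removal of ribosomal RNA, with single-end reads on an Illumina Genome Analyzer IIx, per the labels' protocols. The authors deposited 1 table of whole-number read counts per gene, made with BWA and HTSeq on mm10, per the submitters' processing notes. Versions, annotation and use of strand are not given in the sources used here, and antisense or overlapping genes can therefore share reads. The 5 summary rows of the table, which held 40.7 to 53.9% of reads in tissue and 46.4 to 63.5% in organoids, were left out. Samples were grouped by their titles and labels.

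Counts were tested with edgeR 4.0.16 (limma 3.58.1, R 4.3.3): quasi-likelihood F-test, TMM scaling, 1 mean per group, prior count of 2, genes kept by filterByExpr with a minimum count of 10 and a total of 15, and Benjamini-Hochberg adjustment over all 13657 genes in tissue and 13395 in organoids, which were fitted apart. CPM (counts per 1e6) were reads divided by library size times TMM factor, with effective sizes of 1315821 to 29430520 in tissue and 4380736 to 8858783 in organoids. Standard errors were the log2 change divided by the root of F, an approximation that fails for changes near 0 from few reads. The 28 comparisons were those between tissues, backgrounds and treatments. Intervals and limits from 3 counts at a count of 0 cover counting error only. Libraries of a group differed beyond sampling noise (lowest chi-square per degree of freedom 8.06 in 43 pairs). On simulated counts the test recovered 94% of 2-fold and 98% of 4-fold changes among 13192 genes for the mean adenoma effect, and 64% and 92% among 12745 genes for the mean AZA effect. The changed genes were drawn only from those with a mean above 5 CPM. Alox5ap in tissue and every tuft gene tested in organoids averaged less, so these rates do not cover them. Of the genes called in the simulated tissue and organoid counts, 3.52% and 8.77% were unchanged ones, the latter above the 5% aimed at.

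Adenoma and Min mucosa libraries of the same number deviated together (correlations of 0.107 to 0.455 in 12 pairs), although no label ties a number to an animal, and the fit with a replicate block is given beside those comparisons where it changed a call. Other libraries of the same number did not pair. Alternatives were DESeq2 1.42.0, relative log expression size factors, no Rn45s, no filter on low counts, fits of the compared groups only, the block and leaving out each library. Named genes were all 9 tuft genes, up to 3 called genes per further list with the largest adenoma change and a mean of at least 1 CPM, and the 3 genes most like each tuft gene. A gene among these is counted but not reported here. The further lists covered 43 tuft genes in 4 groups, 12 genes of the type 2 circuit and markers of mast, myeloid, platelet and erythroid, lymphocyte, neuron and glia, fibroblast, smooth muscle, enteroendocrine, goblet, Paneth and enterocyte cells and of proximal and distal intestine. The 9 genes and these lists were chosen with earlier results of these data known. Exon lengths and positions are from GENCODE vM21 (GRCm38), promoters from RefSeq (GRCm38.p6).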

Additional observations from a re-analysis of the deposited data

How the results depend on the processing

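Leaving out 1 library kept 310 of 344 counts of called genes within 1.5 times of their value and 738 of 809 single-gene changes on the same side of the threshold in the same direction, while 35 lost and 4 gained a call and 32, all of genes not called, changed sign. The other alternatives kept 199 of 215 counts and 397 of 414 changes, and 10 gained and 7 lost a call. With a replicate block, the tuft genes called went from 1 to 2 for the adenoma effect in C5F1, from 1 to 0 for PWD against B6 wild-type mucosa, from 1 to 2 for C5F1, from 1 to 3 for C5 and from 2 to 0 for B6xPWD against B6 in adenoma. Same-numbered libraries of different backgrounds did not deviate together (correlations of -0.32 to 0.29 in 30 pairs), so the block has no basis in these comparisons. With it, Ptgs1 in PWD had an adjusted p of 0.0506, and in adenoma Trpm5 and Dclk1 in B6xPWD had log2 differences of 1.19 (adjusted p = 0.228) and 1.25 (0.219), Avil and Dclk1 in C5 of -0.98 (0.0345) and 0.74 (0.0243) and Dclk1 in C5F1 of 1.47 (0.0498). The block changed the further tuft genes in B6xPWD against B6 adenoma from 8 higher and 1 lower to 0 and 0, as did fitting only the compared groups, and without a filter 2 were lower. Fitting only the compared groups gave 1 in place of 0 for C5F1 against B6 in Min mucosa, 2 in place of 1 for C5F1 and for C5 in adenoma and 0 in place of 2 for B6xPWD in adenoma. DESeq2 gave 1 for C5F1 in Min mucosa and 2 for C5F1 in adenoma. No replicate block was possible for control organoids of C5 against B6, which share no numbers. The cause of these changes was not tested.

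With 1 library left out, the tuft genes called ranged from 1 to 2 for the adenoma effect in B6 and in C5F1. Against B6 they ranged from 0 to 1 for B6xPWD and C5F1 in Min mucosa, for C5 and C5F1 in adenoma and for C5 in wild-type mucosa, and from 0 to 2 for B6xPWD in adenoma and PWD in wild-type mucosa. Further tuft genes lower in adenoma ranged from 3 to 13, those higher and lower in B6xPWD against B6 adenoma from 0 to 12 and from 0 to 2, those lower after AZA from 1 to 3 and type 2 genes lower in adenoma from 1 to 2. For genes that changed sign, the adenoma effect of Dclk1 ranged from -0.10 to 0.14 on average, -0.30 to 0.36 in C5F1 and -0.39 to 0.24 in C5. That of Alox5ap ranged from -0.26 to 0.012 on average, -0.91 to 0.13 in B6, -0.63 to 0.11 in C5F1, -0.32 to 0.28 in C5 and -0.25 to 0.50 in B6xPWD. In B6xPWD, Trpm5 ranged from -1.05 to 0.042 and Ptgs1 from -0.076 to 0.42. Dclk1 ranged from -0.060 to 0.11 between Min and wild-type mucosa and from -0.76 to 0.98 after AZA. Depth limited Pou2f3, Gfi1b and Il25, which had too few reads in tissue for a test.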
